A study of Arabidopsis thaliana with 9 samples.

Results

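Col FRI and 35S::FCA early heart embryos of Arabidopsis were compared directly with each other, with 3 libraries each and without Col-0 in the test. These are 6 of the 9 libraries of the series. The 3 Col-0 libraries appear below only as levels and in alternative fits of all 9 libraries. The pair sets the genotype with the highest FLC level in the series against the genotype that overexpresses a repressor of FLC. All plants had the Col-0 accession, which lacks active FRI. Col FRI carries an active FRI allele brought in by crossing. In 35S::FCA, FCA is driven from a transgene by the constitutive viral 35S promoter, which is not limited to the cells that normally use the gene, and reads from the transgene and the native gene were not separated. Each library was made from 20 dissected embryos by Smart-seq2, which amplifies full-length cDNA from little RNA, with reads of 75 nt from both ends in 2 sequencing runs. The parents of Col FRI embryos alone had been kept for 6 weeks at 4 °C after 7 days on plates, so an effect of the FRI segment and an effect of the parental cold cannot be told apart here.

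FLC (FLOWERING LOCUS C) encodes a MADS-box repressor of flowering that delays flowering until winter cold has silenced it, and its expression is set anew in the embryo of each generation. FRI (FRIGIDA) is a scaffold protein that raises FLC transcription. FCA is an RNA-binding protein of the autonomous pathway that lowers FLC by favouring polyadenylation at proximal sites, and it limits its own expression through an early polyadenylation site in its own transcript.

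The deposited estimated counts were summed per gene and scaled by library size with TMM normalisation (CPM below). Depth was 17996274, 23946788 and 25847613 estimated counts in 35S::FCA replicates 1 to 3 and 18768286, 15166826 and 16612376 in Col FRI. Organelle genes took 14.7 to 16.8% of 35S::FCA counts and 19.5 to 20.2% of Col FRI counts, so the groups did not overlap in this share. Col FRI libraries differed from each other by 1.13 to 1.39 times sampling noise (median chi-square over genes) and 35S::FCA libraries by 2.06 to 6.97 times. The labels and the study call the 3 libraries of each genotype biological replicates. Whether each Col FRI library was made from its own embryos cannot be read from these values. The p-values therefore measure the spread between these libraries, which may be technical. The summed level of 10 embryo markers was 511 to 518 CPM in 35S::FCA, against 472 to 491 CPM for Col FRI, and none of the 10 was at 0 in any library. Of the markers of other seed tissues, 9 endosperm genes summed to 4.75 to 6.25 and 6.06 to 6.76 CPM, and 13 seed coat genes to 232 to 244 and 270 to 288 CPM, with 1 endosperm gene and 0 to 2 seed coat genes at 0 per library. The seed coat sum came mostly from the subtilase ARA12, at 182 to 193 CPM in 35S::FCA, against 225 to 245 CPM for Col FRI. Of the 8 seed coat genes high enough to test, only 1 had a log2 fold change above 0, and the median was -0.12. PER36 was lower in Col FRI (log2 fold change -4.71), on 86 counts in 35S::FCA and 2 in Col FRI. ARA12 was higher (edgeR adjusted p = 0.00479). At an adjusted p under 0.05, 12.5% of the 8 were thus higher and 12.5% lower, where 13.2% and 11.7% of all genes were. Of 5 endosperm genes tested, ZOU (RGE1) was higher (20%), at 1.02 to 1.36 against 2.19 to 2.61 CPM. That call (edgeR adjusted p = 0.0153) was lost in 4 of the fits that left out a single library. The part of these tissues in the results was not tested.

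FLC was several-fold higher in Col FRI than in 35S::FCA and had the smallest p of all genes. In the 3 35S::FCA libraries FLC (AT5G10140, chr5:3173382-3179448 on the minus strand of TAIR10.1) stood at 25.9, 28.9 and 28.1 CPM, and in Col FRI at 196, 202 and 201 CPM. The groups lay far apart, and Col-0, with a mean of 33.1 CPM, lay close to 35S::FCA. On the log2 scale Col FRI exceeded 35S::FCA by 2.85 (standard error 0.0572, edgeR adjusted p = 5.69e-07). This value rests on summed counts, which are not corrected for transcript length. With counts scaled for transcript length the log2 difference was 2.17, and it was 2.05 with limma on log2(TPM + 0.1). In whole embryos, more FLC RNA per cell and more cells with FLC cannot be told apart.

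The form of the FLC transcript differed between the genotypes as well as its amount. Proximal FLC transcripts run from exon 1 straight into intron 1 and end there, whereas distal transcripts splice intron 1 out and code for the protein. The first line shows the boundary they share, with exon 1 in lower case and the first bases of the 3493-base intron in capitals, and the second shows the first AATAAA, the canonical polyadenylation signal, in that intron. Both come from RefSeq TAIR10.1.
FLC exon 1 to intron 1, chr5:3179140-3179169, minus strand: ctcctccggcgataaGTACGCCTTTTCCTT
FLC first AATAAA in intron 1 (capitals), chr5:3179059-3179088, minus strand: cttttctgagaaAATAAAaataaaaaaaca
This AATAAA starts 78 bases after the intron's first base on the sense strand and is the first of 2 in the first 100 bases. An AATAAA in the first 100 bases of the first intron was present in 453 of 10695 genes with such a window (4.24%), searched on the sense strand only. Whether it is used as a signal was not measured.

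Distal FLC transcripts, the 4 annotated models summed, were at 4.49, 11 and 8.31 TPM in 35S::FCA and 123, 126 and 127 TPM in Col FRI. The means were 7.95 ± 3.29 and 125 ± 1.96 TPM (SD, n = 3), a ratio of 15.8, and the lowest Col FRI library was far above the highest 35S::FCA library. Proximal FLC transcripts, 3 entries of the index, went the opposite way, at 23.7, 24.3 and 26 TPM in 35S::FCA and 7.74, 8.96 and 9.74 TPM in Col FRI. Proximal forms thus made up 84.1, 68.8 and 75.7% of FLC TPM in 35S::FCA and 5.91, 6.62 and 7.14% in Col FRI. The log2 ratio of distal to proximal TPM was -2.40, -1.14 and -1.64 in 35S::FCA and 3.99, 3.82 and 3.70 in Col FRI, a difference of 5.56. The sign of this ratio separated the genotypes in all 6 libraries, and p was 0.1 by a two-sided exact permutation test, which can go no lower with 3 against 3. Col-0 had 12.9 ± 2.84 TPM distal and 19.1 ± 0.348 TPM proximal FLC (SD, n = 3), with a log2 ratio of -0.59, between the other genotypes. Total FLC TPM differed 4.12-fold between Col FRI and 35S::FCA, less than the distal forms alone.

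**Figure D1:**
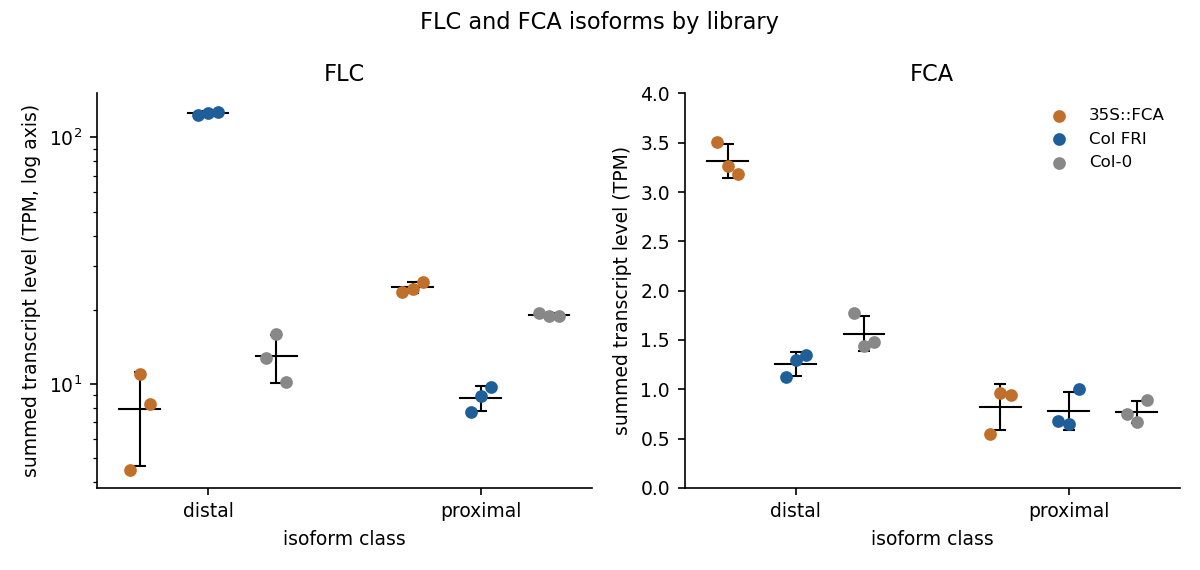
Summed TPM of distal and proximal isoforms of FLC (left, log axis) and FCA (right, linear axis) in each library, with group means and SD bars (n = 3). Distal FLC is 123 to 127 TPM in Col FRI against 4.49 to 11 TPM in 35S::FCA while proximal FLC is in the reverse order. For FCA the distal forms separate the genotypes and the proximal forms overlap.

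FCA, the gene carried by the transgene, was at 17.1, 13.5 and 13.9 CPM in 35S::FCA and at 6.04, 7.18 and 7.69 CPM in Col FRI. All 35S::FCA libraries lay above all Col FRI libraries (log2 fold change -1.09, standard error 0.13, edgeR adjusted p = 0.00142), as the label requires. Distal FCA transcripts carried the difference, at 3.51, 3.26 and 3.18 TPM in 35S::FCA and 1.12, 1.3 and 1.35 TPM in Col FRI. Proximal FCA transcripts, which end early and code for no full protein, were at 0.55, 0.96 and 0.94 TPM and 0.68, 0.65 and 1.00 TPM, and these groups overlapped (exact permutation p = 1.0). The log2 ratio of distal to proximal FCA was 2.67, 1.76 and 1.76 in 35S::FCA and 0.71, 1.01 and 0.43 in Col FRI, a difference of -1.35 (exact permutation p = 0.1). Distal forms of FCA thus took a larger share in 35S::FCA than in Col FRI, whereas for FLC the distal forms were the ones that were low there. Since reads of the transgene were not separated, a change in the site used by the native FCA transcript was not tested. Proximal FCA rested on 15.3 to 38.4 estimated counts per library.

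FRI, the activator introduced in Col FRI, was at 2.78, 5.06 and 4.23 CPM in 35S::FCA and at 8.02, 9.37 and 11 CPM in Col FRI. It was higher in every Col FRI library (log2 fold change 1.2, standard error 0.211, edgeR adjusted p = 0.00644). Of the 7 measured members of the FRIGIDA complex list, TAF14 also rose (4.46 to 5.39 against 6.63 to 7.82 CPM, log2 fold change 0.55, edgeR adjusted p = 0.016), although leaving out 35S::FCA replicate 3 or Col FRI replicate 2 or 3 ended its call. FRL1, FRL2, FES1, SUF4 and FLX, the other members, had log2 fold changes between -0.36 and -0.04 and did not pass. Of the 12 autonomous pathway genes, which lower FLC, FCA was the member lower in Col FRI, and FPA, an RNA-binding protein that acts beside FCA, was slightly higher (log2 fold change 0.19, edgeR adjusted p = 0.048), a call that was lost without 5 of the 6 single libraries. FY, FLD, FVE, LD, FLK, REF6 and the other 4 had log2 fold changes between -0.29 and 0.18 and did not pass. Of 13 cleavage and polyadenylation factors, the endonuclease subunit CPSF73-I alone was higher (log2 fold change 0.22, edgeR adjusted p = 0.0346), and it lost its call without 4 of the 6 libraries. Higher genes thus made up 28.6% of the FRIGIDA complex list, 8.33% of the autonomous pathway and 7.69% of the polyadenylation factors, where 13.2% of all genes were higher. Only the autonomous pathway had a lower gene (8.33%), where 11.7% of all genes were lower. These shares count FRI and FCA, whose direction was set by the genotypes compared. They are therefore no result about the other members of the FRIGIDA complex list and the autonomous pathway. Without 35S::FCA replicate 1 there were 2 higher and 2 lower genes of the FRIGIDA complex list, 3 and 2 of the autonomous pathway and 2 and 1 of the polyadenylation factors.

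Among the relatives and partners of FLC, SVP moved most. SVP, the MADS-box protein that binds DNA together with FLC, was at 9.65, 9.25 and 8.83 CPM in 35S::FCA and 4.12, 3.49 and 3.54 CPM in Col FRI. It was lower in every Col FRI library (log2 fold change -1.31, standard error 0.112, edgeR adjusted p = 0.000376), in the opposite direction to FLC. FLM (MAF1), another flowering repressor of the clade, was slightly higher in Col FRI (22.6 to 23.8 against 28.5 to 30.1 CPM, log2 fold change 0.32, edgeR adjusted p = 0.00654). MAF2, MAF3 and MAF5 had log2 fold changes of -0.05, 0.15 and 0.47 and did not pass, and MAF4 was too low to test. Of 11 floral integrators and FLC targets, 8, among them FT, SOC1 and LFY, were too low to test in embryos. The 3 that were tested, SPL15, SEP3 and FD, had log2 fold changes of 0.58, 0.41 and -0.09, and none passed (edgeR adjusted p = 0.236, 0.328 and 0.661).

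Over all 18008 genes tested with edgeR, 143 (0.794%) passed the strict thresholds of the study, namely more than 2-fold with an adjusted p below 0.001. They were 89 genes higher (0.494%) and 54 lower (0.3%) in Col FRI. In all, 4478 genes (24.9%) passed an adjusted p of 0.05. At an adjusted p under 0.05 and any fold, 2370 genes (13.2%) were higher and 2108 (11.7%) lower, with a median log2 fold change of -0.01 over all genes tested. The 6 libraries did not overlap between the genotypes for 8016 genes (44.5%). The higher number of higher genes depended on the scaling: 62.2% of the strict calls were higher with TMM, 49.5% with library totals only and 41.1% with limma on log2(TPM + 0.1), where the median over all genes was -0.09 and -0.12. At an adjusted p under 0.05 the balance turned, with 52.9% of calls higher with TMM, 35% with library totals only and 32.9% with limma. Without 35S::FCA replicate 1 the strict counts were 380 higher and 571 lower, and without 35S::FCA replicate 3 or any single Col FRI library they were 5 to 9 higher and 2 to 3 lower. Without 35S::FCA replicate 2 they were 99 and 68. When the 3 Col FRI libraries were added into 1 sample, 8 genes passed an adjusted p under 0.05, namely AT4G04223, FLC, AT3G01570, NF-YB6 and AT1G09750, which were higher, and P5CR, BRU6 and AT3G22060, which were lower. No gene then passed the strict thresholds, while 3368 of 19616 genes had an unadjusted p under 0.05. Calls for all other genes, FCA, FRI, SVP and FLM included, therefore rest on counting the 3 Col FRI libraries as separate samples.

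The gene with the smallest p after FLC was the non-coding RNA AT4G04223, at 0.12, 0.155 and 0.15 CPM in 35S::FCA and 18.8, 17.1 and 17.0 CPM in Col FRI (log2 fold change 6.90, standard error 0.149, edgeR adjusted p = 5.69e-07). It was close to absent in 35S::FCA, with 2 to 4 counts per library, and in Col-0, with at most 1. The pseudogene AT5G35935 had no counts in any 35S::FCA or Col-0 library and 1001 counts in Col FRI, at 19.8, 20.0 and 21.0 CPM. That is at least 152-fold higher against a floor of 3 counts per library. The oleosin family gene AT3G01570 was at 4.50, 4.72 and 4.2 CPM in 35S::FCA and at 25.7, 24.6 and 25.7 CPM in Col FRI (log2 fold change 2.50, standard error 0.0784, edgeR adjusted p = 5.46e-06). NF-YB6 (L1L), a LEC1-like subunit of the NF-Y transcription factor that acts in embryo development, was at 9.42, 9.11 and 9.16 CPM and at 36.7, 33.6 and 33.4 CPM (log2 fold change 1.91, standard error 0.0677, edgeR adjusted p = 9.89e-06). Col FRI thus held several times more of both RNAs, with little spread within either genotype. The aspartyl protease AT1G09750 was at 11.7 to 12.9 and 37.2 to 37.8 CPM, ALDH11A3, a glyceraldehyde-3-phosphate dehydrogenase of the cytosol, at 14.4 to 16.9 and 46.5 to 47.5 CPM, and AT1G65090, annotated as nucleolin, at 40.9 to 44.0 and 87.6 to 91.3 CPM. The other 3 of the 10 higher genes with the smallest p, OLEO4, CAB3 and LHB1B2, belong to groups described below.

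Among genes lower in Col FRI, P5CR, the enzyme of the last step of proline synthesis, had the smallest p. It was at 140, 144 and 142 CPM in 35S::FCA and 32.3, 35.3 and 31.0 CPM in Col FRI (log2 fold change -2.11, standard error 0.0589, edgeR adjusted p = 2.9e-06). Col-0, with a mean of 129 CPM, stood near 35S::FCA, so Col FRI was the genotype apart. BRU6 (GH3.2), which conjugates auxin to amino acids, was at 50.2, 54.4 and 49.3 CPM against 14.1, 12.9 and 14.1 CPM (log2 fold change -1.90, standard error 0.0678, edgeR adjusted p = 9.89e-06), with 61.7 CPM in Col-0. AT4G01590, a subunit of RNA polymerase III by its annotation, was at 69.9, 66.0 and 69.1 CPM against 25.3, 27.8 and 26.2 CPM (log2 fold change -1.37). AT5G14840 was at 50.8, 36.4 and 36.9 CPM against 7.49, 7.86 and 8.41 CPM (log2 fold change -2.38). Lack of overlap between the genotypes was a condition for naming these genes. The lipase family gene AT3G14220 differed in another way, at 36.5 to 44.6 CPM in 35S::FCA and 13.0 to 15.9 CPM in Col FRI, since Col-0 stood with Col FRI at a mean of 14.1 CPM. JMJD5, a jumonji protein linked to the clock, was at 58.2 to 70.9 against 28.4 to 29.8 CPM, HCD1 at 13.1 to 14.9 against 5.40 to 5.83 CPM, AT3G22060 at 16.8 to 17.9 against 3.83 to 5.34 CPM and the non-coding RNA AT1G78865 at 54.8 to 63.6 against 24.9 to 27.3 CPM. The non-coding RNA AT4G01593, beside AT4G01590, had 585 counts in 35S::FCA and 2 in Col FRI, a ratio of 204 with a 95% counting interval of 56.3 to 1690.

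**Figure D2:**
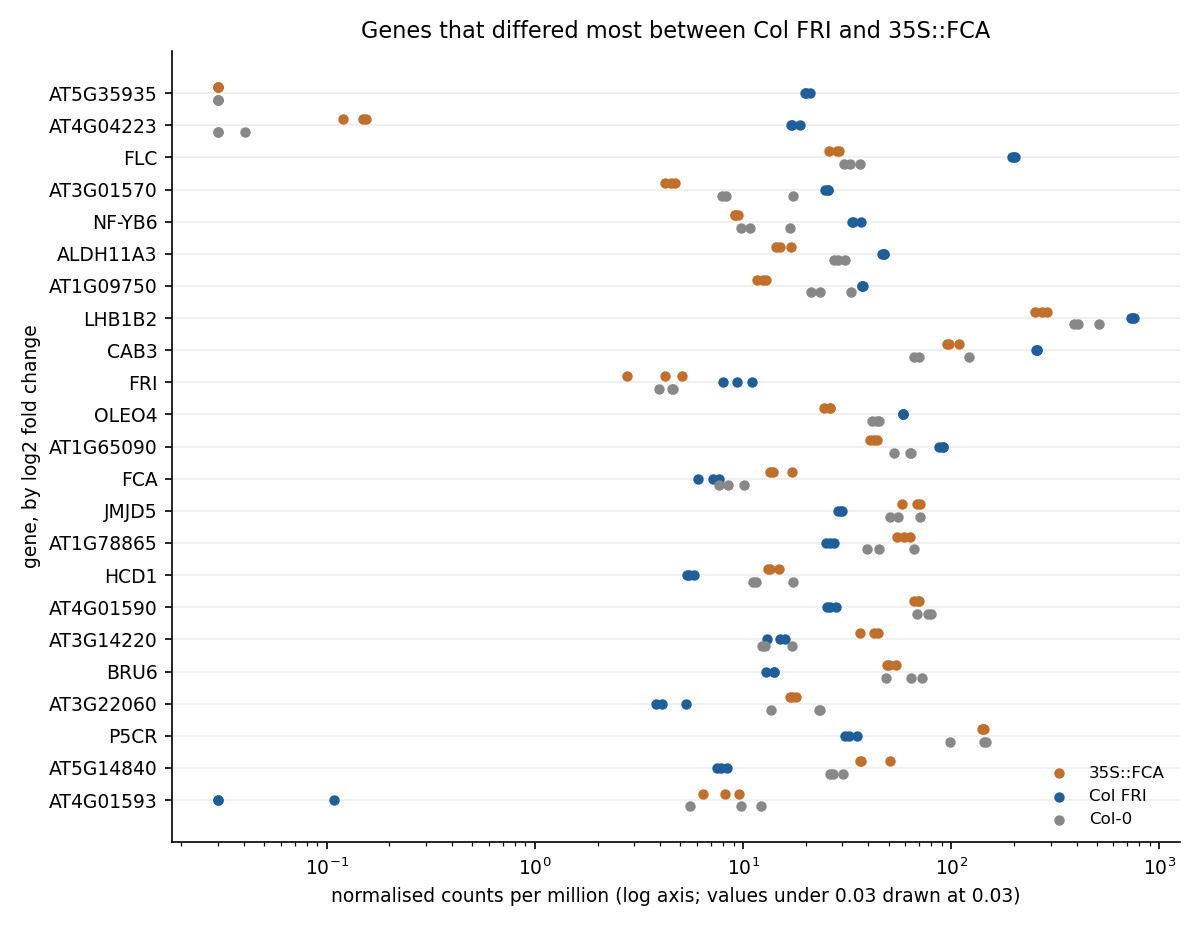
Normalised CPM per library (log axis) for FLC, FCA, FRI and 10 leading genes in each direction, ordered by log2 fold change, with 35S::FCA in orange, Col FRI in blue and Col-0 in grey. Values under 0.03 CPM are drawn at 0.03. The 10 leading genes in each direction were picked among genes whose Col FRI and 35S::FCA libraries do not overlap. FLC, FCA and FRI, shown without this condition, do not overlap either. For AT3G14220 the Col-0 points lie with Col FRI.

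Genes of the photosynthetic apparatus were higher in Col FRI nearly throughout. Of 45 measured genes of light harvesting and the photosystems, 41 (91.1%) were higher at an adjusted p under 0.05, where 13.2% of all genes were, and none was lower. Their median log2 fold change was 0.62, against -0.01 for all genes. LHB1B2 (LHCB1.5), a chlorophyll-binding protein of the main antenna of photosystem II, was at 251, 287 and 274 CPM in 35S::FCA and 731, 747 and 754 CPM in Col FRI (log2 fold change 1.46, standard error 0.0671, edgeR adjusted p = 3.04e-05). CAB3 (LHCB1.2), another member of the same antenna family, was at 109, 95.4 and 97.4 CPM and 257, 254 and 258 CPM (log2 fold change 1.35, edgeR adjusted p = 3.04e-05). LHCA1, an antenna protein of photosystem I, was at 265, 260 and 256 CPM and 561, 568 and 584 CPM (log2 fold change 1.13, edgeR adjusted p = 3.04e-05). In each of these genes the Col FRI libraries were more than double the 35S::FCA libraries. NPQ4 (PSBS), which dissipates excess light energy, was at 132 to 145 and 263 to 266 CPM (log2 fold change 0.94). Mean Col-0 levels of LHB1B2, LHCA1 and NPQ4 were 435, 379 and 217 CPM, between the other genotypes. The Col-0 mean of CAB3 was 85.7 CPM, below the 101 CPM of 35S::FCA. The LHCB1 and LHCB2 genes are near copies that share reads, so the value of each single copy is uncertain.

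The 4 photosynthesis genes that did not pass were PSBTN, PSBX, PSAH2 and LHCB4.3, at log2 fold changes of 0.27, 0.37, 0.29 and 0.30. Leaving out each library in turn gave 40 to 44 higher genes, and library totals only and limma on log2(TPM + 0.1) gave 44 and 38. Once Col FRI was added into 1 sample, no gene of the list passed. Of 12 genes of Rubisco and the Calvin cycle, 11 (91.7%) were higher, where 13.2% of all genes were, with a median of 0.78 on the log2 scale. GAPA, a subunit of the plastid glyceraldehyde-3-phosphate dehydrogenase, was at 95.8, 94.9 and 96.0 CPM in 35S::FCA and 175, 175 and 171 CPM in Col FRI (log2 fold change 0.86, standard error 0.0441, edgeR adjusted p = 5.7e-05). RBCS3B, a small subunit of Rubisco whose near copies share its reads, was at 10.2 to 11 and 24.6 to 28.9 CPM. FBA2, a plastid aldolase, was at 97.1 to 124 and 231 to 236 CPM. The Col-0 mean of RBCS3B was 23.8 CPM, near Col FRI, so 35S::FCA was the genotype apart. For GAPA and FBA2 Col-0 lay between, at means of 137 and 166 CPM. CP12-2, which binds 2 enzymes of the cycle, was the exception at a log2 fold change of -0.14 (edgeR adjusted p = 0.7).

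Of 22 chlorophyll synthesis genes, 17 (77.3%) were higher and none lower, where 13.2% of all genes were higher, with a median log2 fold change of 0.35. The list opened with GUN5, the large subunit of magnesium chelatase, at 46.8, 47.4 and 48.1 CPM in 35S::FCA and 85.1, 89.9 and 84.4 CPM in Col FRI (log2 fold change 0.86, standard error 0.0478, edgeR adjusted p = 7.91e-05). PORB, which reduces protochlorophyllide in light, was at 84.0 to 89.0 and 133 to 135 CPM, CH1 (CAO), which makes chlorophyll b, at 11.8 to 12.7 and 17.3 to 19.4 CPM, and HEME1 at 33.0 to 35.1 and 44.4 to 46.9 CPM. The 5 that did not pass were LIN2, HEMB1, HEMD, PPOX1 and DVR, at log2 fold changes of -0.03, 0.06, 0.04, 0.17 and 0.15. The count was smaller with other scalings, at 7 with library totals only and 2 with limma on log2(TPM + 0.1), and it was 12 to 17 with each library left out in turn.

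Most genes encoded in the chloroplast did not pass. Of 131 tested, 26 (19.8%) were higher, 2 lower and 103 not called, with a median of 0.31 on the log2 scale. Of 106 mitochondria-encoded genes 48 (45.3%) were higher, 1 lower and 57 not called (median 0.46), where 13.2% of all genes were higher. In the fit of all 9 libraries 2 chloroplast and 0 mitochondrial genes were higher. The chloroplast count hung on single libraries: it was 113 without 35S::FCA replicate 1, and 1 or 2 without 35S::FCA replicate 3 or any single Col FRI library. The mitochondrial count was 73 without 35S::FCA replicate 1 and 14 to 22 without 35S::FCA replicate 3 or any single Col FRI library. With the fit limited to nuclear genes other than ribosomal RNA, 42 of the 45 light harvesting and photosystem genes were higher, with a median log2 fold change of 0.63. Of 99 nuclear genes of cytosolic ribosomal proteins, which mark overall protein synthesis, 4 (4.04%) were higher and 7 (7.07%) lower. Both shares were below the 13.2% and 11.7% of all genes. There were 42 lower when only library totals were used, 23 lower without 35S::FCA replicate 2, and 13 higher and 11 lower without 35S::FCA replicate 1.

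The following strict calls were picked after their values were seen and stand for no list. GOX1 (glycolate oxidase), AGT (a glyoxylate aminotransferase) and GLDP1 (glycine decarboxylase), enzymes of photorespiration, had log2 fold changes of 1.57, 1.97 and 1.02. The phenylpropanoid enzymes PAL4, 4CL1 and ATCAD4 and the flavonoid enzyme F3H had log2 fold changes of 2.40, 2.47, 1.22 and 1.21. 4CL1, for example, was at 0.948, 0.718 and 1.17 CPM in 35S::FCA and at 5.24, 5.27 and 5.34 CPM in Col FRI. Of genes lower in Col FRI, the sugar transporter STP1 was at 16.6 to 20.3 against 6.36 to 7.73 CPM and DIN10, a gene induced by darkness and sugar shortage, at 9.48 to 12 against 3.69 to 3.78 CPM (log2 fold changes -1.41 and -1.55). The latter belongs to a list of 8 sugar starvation genes, of which 5 were measured, with DYL1 higher (log2 fold change 0.92, edgeR adjusted p = 0.0252, not called without 4 of the 6 libraries) and KINB1, BCAT2 and DIN4 not past the test. The list thus had 20% higher and 20% lower genes, where 13.2% and 11.7% of all genes were. For DYL1 the Col-0 mean was 5.71 CPM, above 1.4 CPM in 35S::FCA and 2.64 CPM in Col FRI.

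**Figure D3:**
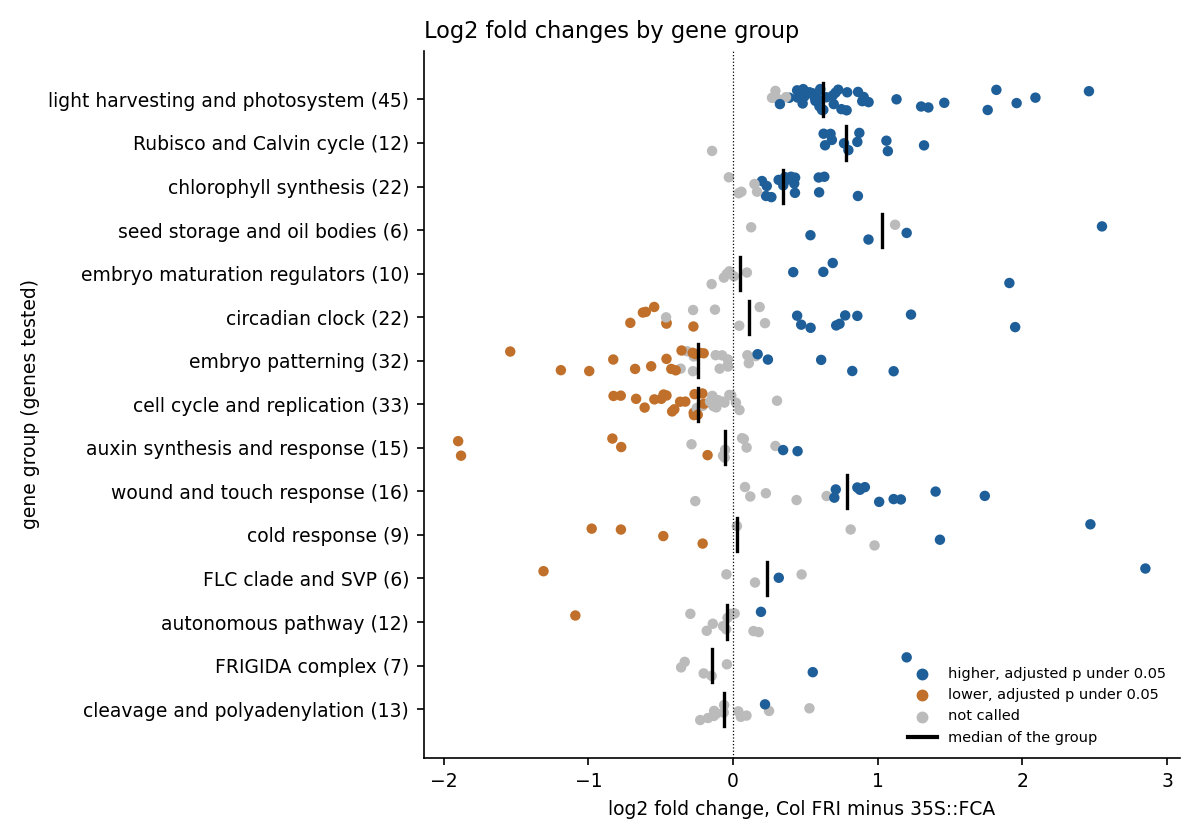
Log2 fold change (Col FRI minus 35S::FCA) of every measured member of the gene groups, 1 point per gene, in blue where higher and orange where lower at an edgeR adjusted p under 0.05 and grey where not called, with a bar at the group's median. Light harvesting and Calvin cycle genes lie right of 0 with medians of 0.62 and 0.78, patterning and cell cycle genes lie mostly left of 0 with medians of -0.25 and -0.24, and clock genes lie on both sides.

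Oil body genes were higher in Col FRI than in 35S::FCA, as the plastid genes were. Oleosins coat the oil bodies in which seeds store lipid. OLEO1 was at 5.75, 3.82 and 4.31 CPM in 35S::FCA and 22.4, 28.6 and 29.2 CPM in Col FRI (log2 fold change 2.55, standard error 0.164, edgeR adjusted p = 0.000116). OLEO4 was at 26.1, 24.4 and 26 CPM against 58.6, 58.3 and 58.4 CPM (log2 fold change 1.2, edgeR adjusted p = 2.23e-05). OLEO3 and OLEO2 were at 259 to 276 against 485 to 529 CPM and at 84.8 to 99 against 133 to 136 CPM. The 4 oleosins did not overlap between the genotypes, as was so for 44.5% of all genes. OLEO1 had the largest fold change of the 4. Of the 17 genes of the seed storage and oil body list, 6 were high enough to test. The 4 oleosins made up the 66.7% of these that were higher, where 13.2% of all genes were. The other 2, the albumin SESA3 and the acyltransferase DGAT1, had log2 fold changes of 1.12 and 0.12 and did not pass. The 2S albumins other than SESA3, the cruciferins and EM1 and EM6, which mark late seed filling, were among the 11 too low to test. Of 10 regulators of embryo maturation, NF-YB6, WRI1, ABI3 and ABI5 (40%) were higher, where 13.2% of all genes were. WRI1, an activator of oil synthesis, was at 62.2, 68.7 and 63.7 CPM against 95.4, 102 and 103 CPM (log2 fold change 0.62, edgeR adjusted p = 0.000482). ABI3, a regulator of seed maturation, was at 65.3 to 68.6 against 87.1 to 92.4 CPM. ABI5, a transcription factor of abscisic acid response, was at 1.18 to 1.7 against 2.33 to 2.54 CPM, a call lost without 4 of the 6 libraries. LEC1, LEC2, FUS3, BBM, AGL15 and ABI4 had log2 fold changes between -0.15 and 0.10 and did not pass.

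The G-box, CACGTG, to which bZIP and bHLH factors bind, was searched on both strands from 250 bases before to 50 after each RefSeq start. It was present in 19 of 87 windows of genes higher at the strict thresholds (21.8%), in 2 of 54 of genes lower (3.7%) and in 8.88% of 17704 windows. At an adjusted p under 0.05 the shares were 12.5% of higher and 7.77% of lower genes. The GATA box, GATAAG, was present in 21 of 45 windows of light harvesting and photosystem genes (46.7%) and in 14.6% of all windows, and in 11.5% of strict higher genes. The evening element, AAAATATCT, was present in 8 of 22 windows of clock genes (36.4%) and in 2.91% of all. The CArG box, bound by MADS-box proteins, was present in 2.3% of strict higher and none of the strict lower windows, and in 3.34% of all. These motifs do not share letters in the windows shown. The last 250 bases before the start are shown for LHCA1 and OLEO1, which stand for the higher plastid and oil body genes, and for LHY and TOC1, clock genes that moved in opposite directions, with motifs in capitals, from RefSeq TAIR10.1.
LHCA1 (2 GATA boxes, the second on the reverse strand), chr3:20341177-20341426, minus strand: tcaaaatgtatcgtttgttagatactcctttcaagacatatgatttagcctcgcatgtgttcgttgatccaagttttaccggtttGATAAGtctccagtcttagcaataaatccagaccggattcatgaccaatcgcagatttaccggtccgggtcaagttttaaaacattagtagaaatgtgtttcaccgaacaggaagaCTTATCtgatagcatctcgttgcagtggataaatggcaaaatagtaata
OLEO1 (2 G-boxes), chr4:12900180-12900429, plus strand: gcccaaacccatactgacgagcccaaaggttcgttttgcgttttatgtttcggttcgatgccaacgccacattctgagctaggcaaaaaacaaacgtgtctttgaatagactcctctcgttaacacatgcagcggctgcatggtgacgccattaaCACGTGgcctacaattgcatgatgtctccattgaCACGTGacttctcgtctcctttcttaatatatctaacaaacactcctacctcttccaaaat
LHY (1 G-box), chr1:37872-38121, minus strand: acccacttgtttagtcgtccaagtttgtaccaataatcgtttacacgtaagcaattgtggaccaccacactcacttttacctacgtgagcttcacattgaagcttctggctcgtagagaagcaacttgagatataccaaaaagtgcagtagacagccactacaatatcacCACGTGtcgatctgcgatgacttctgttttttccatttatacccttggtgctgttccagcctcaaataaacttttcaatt
TOC1 (1 GATA box and 1 evening element, both on the reverse strand), chr5:24674713-24674962, plus strand: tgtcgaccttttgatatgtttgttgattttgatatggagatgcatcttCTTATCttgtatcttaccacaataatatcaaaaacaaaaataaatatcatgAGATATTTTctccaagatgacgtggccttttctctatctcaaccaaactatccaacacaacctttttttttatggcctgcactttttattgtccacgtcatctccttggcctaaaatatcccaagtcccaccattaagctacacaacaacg
In LHCA1 the GATA boxes lie 165 and 49 bases before the start, and in OLEO1 the G-boxes lie 95 and 61 bases before it. The 250 bases of CAB3, LHB1B2, AT3G01570, NF-YB6, SVP and P5CR held none of the 4 motifs.

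Clock genes moved in both directions. Of 22 measured, 9 (40.9%) were higher and 7 (31.8%) lower, where 13.2% and 11.7% of all genes were, and the median of 0.11 on the log2 scale fell to -0.01 with limma on log2(TPM + 0.1). LHY, a MYB factor of the morning, was at 1.78, 1.17 and 1.90 CPM in 35S::FCA and 7.06, 5.61 and 6.03 CPM in Col FRI (log2 fold change 1.95, standard error 0.209, edgeR adjusted p = 0.000883). LNK1, a coactivator that acts with morning factors, was at 11.6, 12.1 and 12.1 CPM against 21.0, 18.5 and 20.2 CPM (log2 fold change 0.74). LNK2 was at 5.59 to 6.98 against 9.87 to 11.9 CPM. GRP8 (CCR1), an RNA-binding output of the clock, was at 100 to 122 against 148 to 154 CPM. Mean Col-0 levels of LHY, LNK1 and LNK2 were 1.98, 13 and 5.19 CPM, near 35S::FCA. The Col-0 mean of GRP8 was 182 CPM, above Col FRI, with libraries from 132 to 224 CPM. The genes next named were picked after their values were seen. CCA1, the partner of LHY, PRR7, PRR5, ELF3 and COL2 were higher too, at log2 fold changes of 0.71, 0.86, 0.54, 0.44 and 1.23. TOC1, LUX, BOA, ELF4 and FKF1 were lower, at log2 fold changes of -0.27, -0.46, -0.60, -0.46 and -0.55, as were LKP2 and RVE6 at -0.71 and -0.62. GI, ZTL, RVE1, RVE4, CO and GRP7 did not pass. Without 35S::FCA replicate 3 or any single Col FRI library, 6 to 7 clock genes were higher and 1 to 3 lower. There were 9 higher without 35S::FCA replicate 1 or 2, with 9 and 6 lower. The labels give no hour of dissection, and a difference in that hour between the genotypes was not tested.

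Genes of embryo patterning moved in both directions. Of 32 measured, 14 (43.8%) were lower and 5 (15.6%) higher, where 11.7% and 13.2% of all genes were, with a median log2 fold change of -0.25, and leaving out 35S::FCA replicate 3 or any single Col FRI library gave 8 to 11 lower and 2 to 3 higher. DRNL, an AP2 factor of cotyledon formation, was at 26.1, 25.9 and 23.8 CPM in 35S::FCA and 14.3, 15 and 13.4 CPM in Col FRI (log2 fold change -0.83, standard error 0.0733, edgeR adjusted p = 0.000417). WOX5, which maintains the root stem cell niche, was at 40.1, 29.2 and 32.2 CPM against 14.3, 14.2 and 15.8 CPM (log2 fold change -1.19, edgeR adjusted p = 0.000713). Neither gene overlapped between the genotypes, which held for 44.5% of all genes. PDF2, an epidermal homeodomain factor, was at 138 to 140 against 103 to 105 CPM, and CUC1, which marks the boundary between cotyledons, at 14.4 to 15.3 against 8.93 to 9.99 CPM. The following were picked after their values were seen. PLT1, CUC3, ANT, MP, REV and WUS were lower, at log2 fold changes of -0.57, -0.99, -0.40, -0.26, -0.36 and -1.54, WUS on 1.06 to 1.24 and 0.274 to 0.496 CPM. The zinc finger genes WIP4 and WIP5, which act in root initiation and were not in the list, had log2 fold changes of -1.13 and -2.50. ATHB8 and SHR, vascular and ground tissue regulators, were higher (log2 fold changes 1.11 and 0.61), as were SCR, KAN1 and CLV3 at 0.24, 0.17 and 0.82. STM, PHB, WOX2, WOX8 and WOX9 were among the 13 that did not pass.

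Cell cycle genes were lower or did not pass. Of 33 measured, 18 (54.5%) were lower and none higher, where 11.7% of all genes were lower, with a median log2 fold change of -0.24. The mitotic cyclin CYCB1;3 was at 60.3, 76.5 and 72.9 CPM in 35S::FCA and 40.6, 38.8 and 39.2 CPM in Col FRI (log2 fold change -0.83, standard error 0.0884, edgeR adjusted p = 0.000878). CYCB1;2 (CYC1BAT) was at 145 to 156 against 99.2 to 107 CPM, CYCB2;2 at 26.1 to 29.5 against at most 18.6 CPM, and CYCD3;3, a cyclin of the entry into the cycle, at 134 to 145 against 99.8 to 104 CPM. These 4 did not overlap between the genotypes, as was so for 44.5% of all genes. In subsets picked after their values were seen, the 8 mitotic B-type cyclins of the B1 and B2 classes were lower, and the replication genes MCM2, MCM3, MCM4, MCM5 and MCM7 had log2 fold changes between -0.16 and -0.01 and did not pass. Without 35S::FCA replicate 3 or any single Col FRI library, 10 to 12 genes were lower. Of 15 auxin genes 5 (33.3%) were lower and 2 (13.3%) higher, where 11.7% and 13.2% of all genes were. Without 35S::FCA replicate 3 or any single Col FRI library, 3 or 4 were lower and 0 or 1 higher. In the fit without 35S::FCA replicate 1, 4 were higher. Besides BRU6, the auxin-conjugating DFL1 (GH3.6) was at 12.9 to 16.4 against 7.59 to 9.44 CPM and the auxin synthesis gene YUC1 at 5.69 to 7.21 against 3.66 to 4.12 CPM, while TAA1, TAR2, IAA1, IAA2, IAA19 and IAA30 did not pass. GH3.1 was lower (log2 fold change -1.88), a call lost when any 1 of the Col FRI libraries was left out. Of 7 type-A response regulators of cytokinin, ARR7 was lower (16.3 to 18.7 against 11.6 to 12.6 CPM) and the other 6 did not pass, a lower share of 14.3% that is near the 11.7% of all genes, although 1 gene was higher and 2 lower without 35S::FCA replicate 1.

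Responses to stress and handling were mixed. Of 16 wound and touch genes 10 (62.5%, against 13.2% of all genes) were higher and none lower, with a median of 0.78 on the log2 scale, but the 35S::FCA libraries differed among themselves. Picked after their values were seen, ZAT12, a zinc finger gene of general stress, was at 4.80, 1.13 and 1.71 CPM in 35S::FCA and 8.07, 7.80 and 8.19 CPM in Col FRI, and TCH4, a wall enzyme induced by touch, at 89.3, 35.8 and 49.7 CPM and 110, 109 and 107 CPM. In both, 35S::FCA replicate 1 lay nearest to Col FRI. Without that library 13 of the genes were higher, without 35S::FCA replicate 3 none, and without a single Col FRI library 0 or 1. LOX3, ERF6, JAZ5 and ERF1A, the 4 with the smallest p, had log2 fold changes of 1.11, 1.01, 1.4 and 0.86. Each lost its call without at least 3 of the libraries. Their Col-0 means were 4.24, 13.4, 3.11 and 2.4 CPM, against 2.23, 12.9, 1.13 and 2.44 CPM in Col FRI. The 35S::FCA means were 1.04, 6.58, 0.429 and 1.35 CPM, the lowest of the 3 genotypes. JAZ5 spread from 0.393 to 6.52 CPM within Col-0. Of 9 cold genes, 4 (44.4%) were lower and 2 (22.2%) higher, where 11.7% and 13.2% of all genes were. Without 35S::FCA replicate 3 or any single Col FRI library, 1 was lower and 0 to 2 higher. In the fit without 35S::FCA replicate 1, 4 cold genes were higher. The dehydrin ERD10 was at 12.1 to 16.5 against 6.26 to 7.53 CPM and KIN2 at 0.529 to 1.01 against 2.05 to 2.38 CPM (log2 fold changes -0.98 and 1.43), the latter not called without Col FRI replicate 2. Col-0 means were 20.5 CPM for ERD10 and 4.2 CPM for KIN2, above both genotypes. CBF1, CBF2 and VIN3, the last of which is induced in prolonged cold, did not pass. Of 9 heat shock genes, the mitochondrial small heat shock protein gene HSP23.5 was lower (2.96 to 3.21 against 0.214 to 0.753 CPM). HSP17.6A and BAG6 were higher, BAG6 not without 4 of the 6 libraries, and 5 were higher without 35S::FCA replicate 1. The heat shock shares were 11.1% lower and 22.2% higher, where 11.7% and 13.2% of all genes were.

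The share of strict calls was larger near the introgressed FRI allele than elsewhere, a difference that was not tested. FRI lies at chr4:268901-271503. Of 307 genes tested within 2 Mb of it, 3 were higher and 5 lower at the strict thresholds (2.61%), against 84 and 49 of 17398 elsewhere on the nuclear chromosomes (0.764%). AT4G00600, an amino acid dehydrogenase family gene just beside FRI, had 2 counts in all 35S::FCA libraries and 136 in Col FRI, a ratio of 97.3 with a 95% counting interval of 26.4 to 812. The pseudogene SADHU5-1 had 118 counts in 35S::FCA and none in Col FRI, at least 9.09-fold lower. ECA2, a calcium ATPase, was at 9.41 to 10.3 against 3.21 to 4.59 CPM and its neighbour AT4G00905 on the other strand at 3.44 to 3.54 against 8.01 to 8.24 CPM. GATL6, a galacturonosyltransferase-like gene, was at 8.92 to 9.36 against 2.46 to 3.1 CPM (log2 fold change -1.67). AT4G01590, AT4G01593 and AT4G04223, given above, complete the 8. For each of the 8, the Col-0 libraries stood on the side of 35S::FCA. Reads of all genotypes were assigned to TAIR10 transcripts. Whether the segment brought in by crossing differs from these in sequence or gene content, and so in counts, was not tested.

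**Figure D4:**
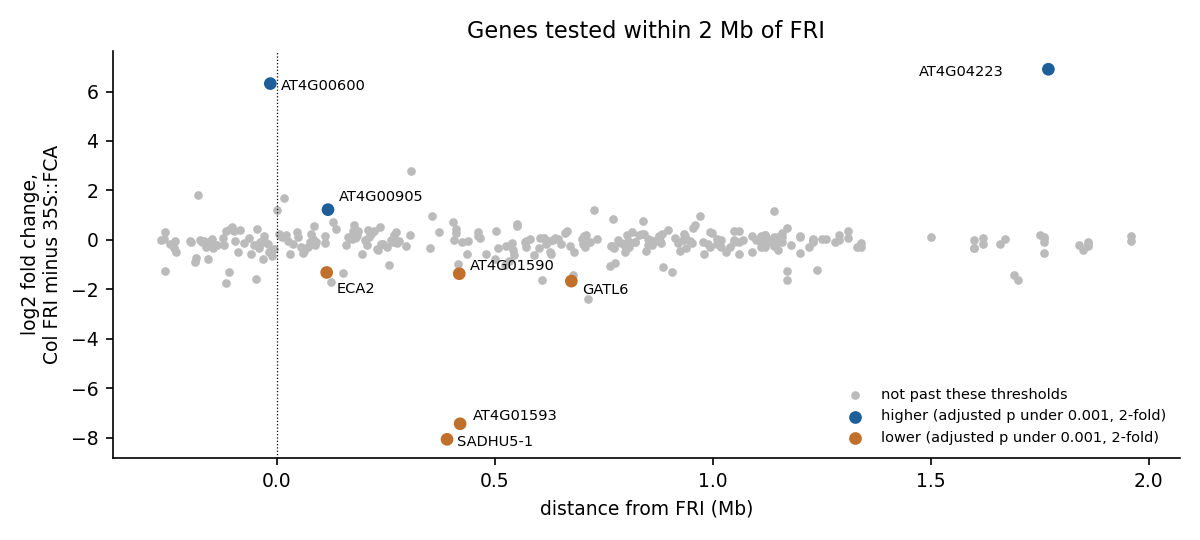
Log2 fold change (Col FRI minus 35S::FCA) of the 307 genes tested within 2 Mb of FRI against distance from FRI in Mb, with 3 genes higher (blue) and 5 lower (orange) at an edgeR adjusted p under 0.001 and 2-fold and the others in grey. AT4G00600 and AT4G04223 have fitted values of 6.32 and 6.90, and AT4G01593 and SADHU5-1 of -7.44 and -8.07 with 2 and 0 counts in Col FRI, so their fitted values depend on the prior count.

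Elsewhere, 5 runs of at least 3 neighbouring genes moved the same way by more than 2-fold at an adjusted p under 0.05. On chromosome 3, AT3G13240, AT3G13250 and AT3G13270 had 1, 0 and 0 counts in all 35S::FCA libraries and 63, 41 and 47 in Col FRI. Col-0 held counts of these genes in every library, 18 to 44, so 35S::FCA was the genotype without them. The pseudogenes AT3G21020, AT3G21030 and AT3G21040 were lower in Col FRI, with AT3G21040 at 160 and 2 counts. DPBF2, AT3G44470 and the disease resistance gene RPP1 were higher, RPP1 at 3.99 to 4.23 against 8.04 to 9.48 CPM (log2 fold change 1.11, edgeR adjusted p = 0.000693). OTP86, the precursor of MIR167b and AT3G63380 were lower, and so were the adjacent small nucleolar RNAs AT4G39361, AT4G39363 and AT4G39364, at log2 fold changes of -1.02, -1.32 and -1.25.

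The share of each transcript within its gene was compared for 3232 genes with at least 2 measured transcripts. Isoform usage differed for 48 of them (1.49%) at an adjusted p under 0.05 (edgeR diffSpliceDGE), and FLC had the smallest p (adjusted p = 1.46e-07). Without 35S::FCA replicate 1 or any single Col FRI library 83 to 121 genes passed, and FLC ranked 3 by p without Col FRI replicate 1 and 1 without any other single library. In FLC, the first transcript model took 14.2, 30.8 and 23.8% of TPM in 35S::FCA and 93.2, 92.5 and 91.8% in Col FRI. Of the proximal entries the second had the largest share in 35S::FCA, at 39.6, 40.3 and 39.6%, and 2.50, 3.03 and 0.617% in Col FRI. FCA itself did not pass this test (adjusted p = 0.834). The other genes named here are those with the next smallest p. PRP39, a splicing factor, used its first model for 39.5, 41.4 and 33.5% of its TPM in 35S::FCA and 14.9, 13.1 and 19.8% in Col FRI, with no overlap. AT5G18230, annotated as a NOT2/NOT3/NOT5 family regulator, had its second model at 1.66, 2.26 and 1.76 TPM against 4.12, 3.59 and 3.72 TPM. In LCB1, a subunit of the first enzyme of sphingolipid synthesis, the second model was close to 0 in 35S::FCA and took 32.9, 37.4 and 21.7% in Col FRI. The same on-and-off form was seen for the second model of AT2G39950 (44.9, 53.2 and 41.7% in Col FRI) and for the first model of AT5G01780 (43.9, 50.4 and 38.3%). AT5G64910 switched fully, with the second model at 0% of TPM in 35S::FCA, against 99.8 to 99.9% for Col FRI. RAB8, a small GTPase of secretion, used its second model for 9.29, 12.3 and 15.4% in 35S::FCA and for almost none in Col FRI.

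**Figure D5:**
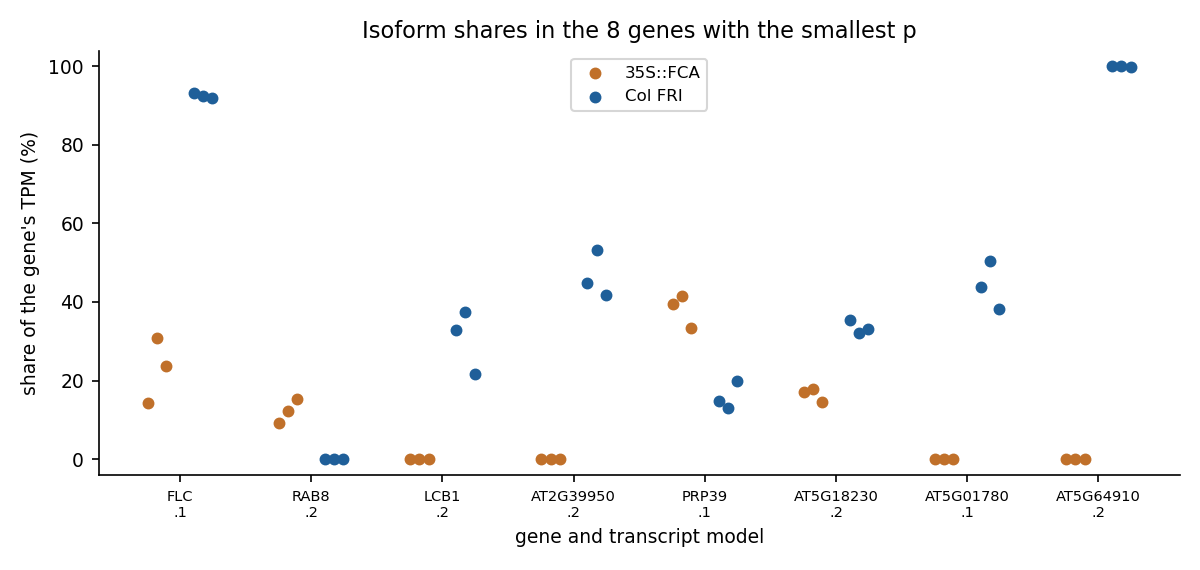
Share of the gene's TPM (%) taken by 1 transcript model in each library, for the 8 genes with the smallest p for isoform usage, with 35S::FCA in orange and Col FRI in blue. In all 8 the points of the genotypes do not overlap, from the first FLC model (14.2 to 30.8% against 91.8 to 93.2%) to the second AT5G64910 model (0 against 99.8 to 99.9%).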

How the data were processed

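Transcript abundance was taken from the tables deposited for each library, which the authors made with kallisto (version not given in the sources used here) against an index with TAIR10 transcripts and added proximal forms. Each table holds estimated counts, which the authors deposited without normalisation, and TPM, which the authors scaled for transcript length and library total. Estimated counts were summed per locus and rounded, and libraries were grouped by the labels. The 6 libraries were fitted with edgeR 4.0.16 (R 4.3.3): filterByExpr, TMM, quasi-likelihood test of genotype, Benjamini-Hochberg adjustment. The filter also removes low genes, and the small number of libraries limits precision. Counting intervals and floors cover counting error only. Strict calls used the study's thresholds. The text names FLC, FCA and FRI and the 10 genes per direction with the smallest p among strict calls without overlap between the genotypes. It also names up to 4 called genes per list and the 8 genes with the smallest p for isoform usage, with any others said to be picked later. The members and lists were chosen with earlier results of these data known. Sums of distal and proximal TPM were compared by exact permutation tests. Scripts were tested on simulated data. Alternatives used limma 3.58.1, DESeq2 1.42.0, other filters, scalings and thresholds, and each library left out. Positions, symbols and sequences came from RefSeq TAIR10.1, where 303 tested genes had no position.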

Additional observations from a re-analysis of the deposited data

How the results depend on the processing

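FLC, its distal to proximal ratio and that of FCA kept their direction in every alternative run. The size of the FLC log2 fold change depended on the measure. Against 2.85, it was 2.17 with length-scaled counts, 2.05 with limma on log2(TPM + 0.1) and 2.02 on log2(TPM + 1). Of 78 named genes under all alternatives, 1478 values gave 0 reversals and 191 lost calls, 70 of them with the Col FRI libraries summed. At the strict thresholds, against 89 higher and 54 lower genes, DESeq2 gave 197 and 152, no filter 144 and 108, voom 88 lower, library totals only 54 higher, limma on log2(TPM + 0.1) 23 and 33 and on log2(TPM + 1) 31 higher. Thresholds of adjusted p under 0.01 with 2-fold gave 259 and 197, and under 0.001 at any fold 204 and 123. At an adjusted p under 0.05, against 2370 and 2108, fitting all 9 libraries gave 1301 and 1101, library totals only 1317 and 2446, and the limma fits 830 and 1691 and 868 and 1706, so that more genes were lower than higher. With the Col FRI libraries summed, the counts were 0 and 0 at the strict thresholds and 5 and 3 at 0.05. Leaving out each library gave 5 to 380 strict higher, 2 to 571 strict lower, 1138 to 4009 higher and 910 to 3853 lower genes. For isoform usage, against 48 genes, all 9 libraries gave 79, Simes 22 and leaving out each library 63 to 121. Same-numbered libraries did not deviate together (r = -0.0798, -0.0701 and -0.0179). The Col FRI libraries differed by little more than sampling noise, so this check cannot decide whether the numbers pair libraries. A replicate block gave 4 and 1 strict calls, 1267 lower genes at 0.05, 3 isoform genes, and log2 ratio differences of 5.56 for FLC and -1.35 for FCA. The causes of these shifts were not tested. With 15.3 to 38.4 counts of proximal FCA per library, depth limits the FCA ratio.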
